A study of Rattus norvegicus with 6 samples.

Results

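The normal miRNA profile of the lens capsular membrane, the thin covering of the lens with the cells attached to it, was described from the 3 control libraries of the series (control libraries 1 to 3), which are 3 of its 6 libraries. Members were all table rows that carry a rat name (prefix rno-), 763 of the 910 names listed, of which 560 had at least 1 count in a control library. Each control library came from 1 Sprague Dawley rat pup that received saline under the skin of the neck on days 3, 5, and 7, with no sodium selenite, and whose lens was taken on day 15. The methods give the pups as 8 days old when the model was set up, without saying how that age and the day numbers relate. The labels do not name the capsule region, the sex, or the cells kept with the membrane. In whole-tissue RNA, fewer cells of a type and less RNA per cell cannot be told apart.

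A miRNA is cut from a hairpin precursor, whose stem gives a 5p arm and a 3p arm. One arm is usually kept in the Argonaute protein and the other degraded. Bases 2 to 8 of the mature miRNA, the seed, choose its target mRNAs, so miRNAs with the same seed form a family. The lens and the tissues around it are known for miR-184, miR-204, and the sensory cluster of miR-183, miR-96, and miR-182. A read in a small RNA library stands for a whole mature miRNA, so levels were compared as CPM, the counts of a name per 1000000 rat counts, without a length correction, and differences in how well single sequences are captured were not corrected.

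The mature sequences below belong to the names that carry most of the profile and to the near-identical members discussed with them. They are from RefSeq (GRCr8), 5′ to 3′, with the seed in capitals. The table held 18 of the 20 most abundant names, and miR-99a-5p and miR-30d-5p are given by name. The sequence of miR-148a-3p lies at chr4:81664447-81664467 on the minus strand, that of miR-184 at chr8:99222991-99223012 on the minus strand, and those of miR-182, miR-96-5p, and miR-183-5p at chr4:59752249-59752273, chr4:59755901-59755923, and chr4:59756106-59756127 on the minus strand. The hairpins of these 5 lie inside no protein-coding gene of that assembly, whereas Mir26a lies inside Ctdspl and Mir204 inside Trpm3.
miR-148a-3p: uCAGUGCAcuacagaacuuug
miR-148b-3p: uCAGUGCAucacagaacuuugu
miR-152-3p: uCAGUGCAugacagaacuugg
miR-182: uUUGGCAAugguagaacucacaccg
miR-96-5p: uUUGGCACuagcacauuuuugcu
miR-183-5p: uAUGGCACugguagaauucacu
miR-184: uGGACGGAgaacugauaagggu
miR-26a-5p: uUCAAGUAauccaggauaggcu
miR-26b-5p: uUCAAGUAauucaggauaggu
miR-204-5p: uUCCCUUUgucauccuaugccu
miR-211-5p: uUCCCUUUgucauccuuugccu
miR-1b: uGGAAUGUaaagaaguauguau
miR-1-3p: uGGAAUGUaaagaaguguguau

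Rat names took 2826525, 2073588, and 1804803 counts in control libraries 1 to 3, and 3 counts corresponded to 1.06, 1.45, and 1.66 CPM. These floors describe counting error alone, since the labels name no molecular identifiers and PCR copies of a molecule are counted again. At least 1 count was found for 521, 488, and 498 rat names, and 442 names were counted in all 3 libraries. The 55 names seen in a single library had at most 4 counts, and 203 names had none, which allows up to the 3-count floor of each library. The design text gives 3 rats for the 3 libraries. Each pair of libraries differed by more than counting noise, with a chi-square over degrees of freedom of 54.5 or more. This tells them from repeat counts of 1 library and does not bear on whether they share an animal.

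A few miRNAs made up most of the profile. The first 4 names reached 50% of the counts. They were miR-148a-3p, miR-99a-5p, miR-182, and miR-184, which together took 50.6%, 51.5%, and 52.5% of the rat counts in control libraries 1 to 3. The 10 most abundant names took 70.9% ± 1.13 (SD, n = 3), the first 29 names 90.1% ± 0.60 (SD, n = 3), and the first 100 names 98.3% ± 0.06 (SD, n = 3). By level, 18 names stood at 10000 CPM or more, 55 at 1000 CPM or more, and 160 at 100 CPM or more. The 129 counted names under 1 CPM held 0.0053% of the counts in all.

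**Figure D1:**
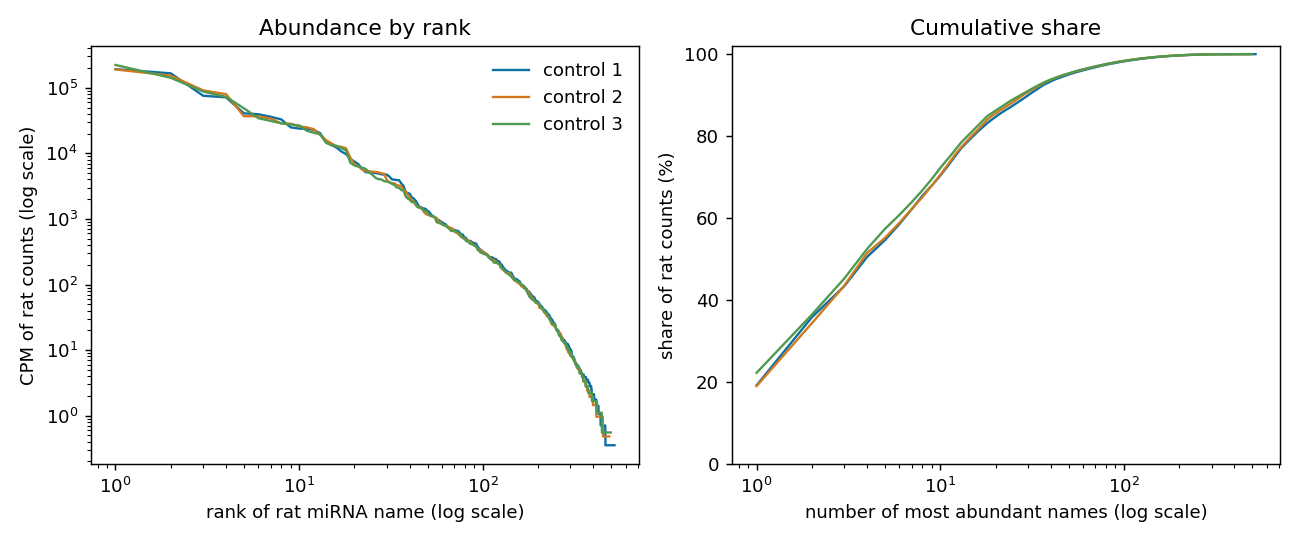
CPM of rat counts by rank of the rat miRNA name (left, both axes on a log scale) and the cumulative share of rat counts in percent by number of names (right, log scale on the x axis), with a line for each of the 3 control libraries. The lines lie close together, and the first 10 names reach 70.2% to 72.2% in each library.

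The most abundant miRNA was miR-148a-3p, a member of the miR-148/152 family. It stood at 192374, 190602, and 222942 CPM in control libraries 1 to 3, a mean of 20.2% ± 1.82 of the rat counts (SD, n = 3), and held the first rank in every library. The second in every library was miR-99a-5p, of the miR-99/100 family, with 166052, 153307, and 141947 CPM. The ratio of miR-148a-3p to miR-99a-5p was 1.16, 1.24, and 1.57, so the order held in each library while the distance changed. Control library 3 was the highest of the 3 for miR-148a-3p and the lowest for miR-99a-5p.

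Next came miR-182 and miR-184, which exchanged places between libraries. The sensory miRNA miR-182 stood at 71484, 91345, and 87704 CPM, and miR-184, known as abundant in cornea and lens, at 75660, 79923, and 72595 CPM. Their ranges overlapped, so their order was not larger than the spread between animals. In miR-184 the coefficient of variation (SD over mean) was 4.84%, against 12.7% in miR-182. The other members of the sensory cluster were miR-96-5p at 41153 ± 7395 CPM and miR-183-5p at 34692 ± 3078 CPM (SD, n = 3 each). Between them by level was miR-26a-5p, a broadly expressed miRNA, at 36878 ± 2577 CPM (SD, n = 3).

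The remaining names among the 20 most abundant ranged from 30062 to 7370 CPM. They were miR-143-3p, of smooth muscle and stromal cells, at 30062 ± 2454 CPM, miR-9a-5p, of neural tissue, at 26079 ± 1349 CPM, and miR-126a-3p, of endothelium, at 21313 ± 2018 CPM (SD, n = 3 each). The let-7 family members let-7i-5p, let-7f-5p, let-7g-5p, and let-7c-5p lay between 25146 and 7370 CPM. The eye miRNA miR-204-5p stood at 14306 ± 2068 CPM, and miR-30d-5p, miR-21-5p, miR-7a-5p, miR-1b, and miR-181a-5p followed between 14045 and 7398 CPM (SD of 535 to 1884 CPM, n = 3 each). Of the 20 highest names of each library, 19 were the same in all 3, and 3 of the 20 names held the same rank in all 3.

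**Figure D2:**
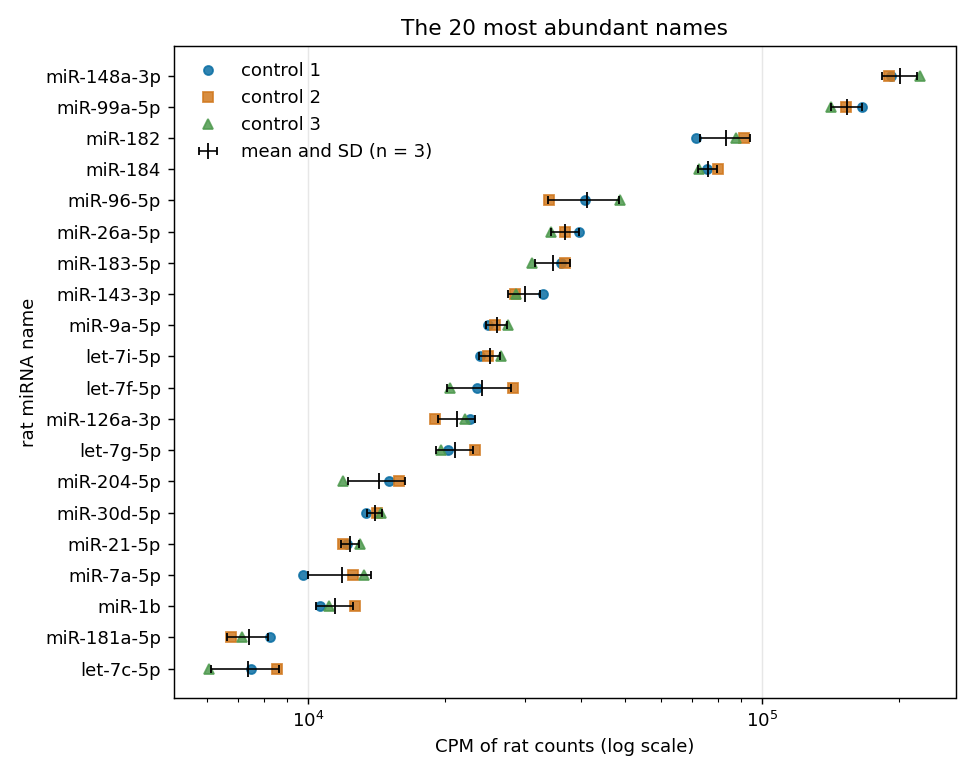
Levels of the 20 most abundant rat miRNA names in CPM of rat counts (log scale), with a point for each control library and the mean with SD (n = 3). The points of miR-148a-3p and miR-99a-5p lie between 141947 and 222942 CPM, apart from those of all other names, while miR-182 and miR-184 overlap.

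The libraries were close to each other. Across the 320 names with at least 10 counts in every control library, the log2 CPM values of each pair of libraries correlated at Pearson's r of 0.993 to 0.994 and Spearman's rho of 0.990 to 0.992 (across miRNAs, which share libraries and are not independent replicates). The median coefficient of variation of these names was 13.3%, where counting error alone gives a median of about 6.67%, and edgeR's common biological coefficient of variation was 12.3%. Among the 160 names at 100 CPM or more, the highest library exceeded the lowest by a median of 1.22-fold, and by more than 1.5-fold in 5 names. Those were miR-543-3p (1.61-fold), let-7a-5p (1.56-fold), miR-434-3p (1.55-fold), let-7b-5p (1.55-fold), and miR-455-5p (1.52-fold). The next were miR-382-3p, the heart and muscle miRNA miR-499-5p, miR-384-5p, miR-10b-5p, and miR-495, each below that. The steadiest names at 1000 CPM or more were miR-148b-3p, with 1106 ± 23.7 CPM, and miR-378a-3p, with 5001 ± 108 CPM (SD, n = 3 each).

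Arm use was close to all or nothing. Both arms were listed for 301 miRNAs, and 167 of these pairs had at least 50 counts over both arms in every control library. One arm took at least 90% of the counts in every library in most of the 167, with 69 pairs on the 5p arm and 56 on the 3p arm, and 69 pairs of both kinds reached 99% in every library. In 20 pairs the minor arm had no count in any library. The remaining 42 pairs had no arm at 90% in every library, and they held 2.63% of the rat counts together. Over all 167 pairs, the 5p arm took 62.1%, 62.8%, and 59.3% of the counts. Without the most abundant pair, miR-148a, the mean share was 81.3%, so this 1 pair set much of the sum. Of the 20 most abundant pairs, 17 were dominated by the 5p arm and 3 by the 3p arm (miR-148a, miR-143, and miR-126a). The 136 rat names without an arm ending, miR-182, miR-184, and miR-1b among them, are in no pair. They held 16.2%, 18.8%, and 17.6% of the rat counts in control libraries 1 to 3, so the arm shares do not cover them.

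The hairpins of 3 miRNAs show the kinds of arm use, 1 with nearly all counts on the 5p arm (Mir26a), 1 with nearly all on the 3p arm (Mir148a), and 1 with both arms counted alike (Mir132). The sequences are RefSeq's (GRCr8), and capitals mark the arm or arms that held nearly all counts.
Mir26a: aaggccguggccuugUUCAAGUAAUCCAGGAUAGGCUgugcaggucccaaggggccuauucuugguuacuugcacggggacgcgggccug
Mir148a: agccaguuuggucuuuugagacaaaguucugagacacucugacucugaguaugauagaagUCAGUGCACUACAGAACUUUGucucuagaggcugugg
Mir132: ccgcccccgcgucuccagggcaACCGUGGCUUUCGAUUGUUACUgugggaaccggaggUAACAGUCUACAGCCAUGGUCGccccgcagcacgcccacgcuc

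The 5p share of miR-148a was 0.14%, 0.11%, and 0.11% in control libraries 1 to 3. The minor arm miR-148a-5p stood at 238 ± 25.4 CPM (SD, n = 3). The 5p share of miR-143 was 0.36% to 0.39% and that of miR-126a 0.83% to 1.06%. The largest minor arms of dominated pairs were miR-9a-3p at 492 ± 33.2 CPM and miR-30a-3p at 384 ± 64.7 CPM (SD, n = 3 each), and 12 minor arms reached 100 CPM with locus-numbered names summed. Among these, the 3p arms of let-7a and let-7c include names with identical counts in every library.

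Members of the same family did not always use the same arm. In the miR-29 family, miR-29a had 0.16% ± 0.07 of its counts on the 5p arm and miR-29b 5.28% ± 3.34, whereas miR-29c had 89.6% ± 2.92 on that arm (SD, n = 3 each). The ranges of miR-29c (86.2% to 91.7%) and of the other members (at most 8.55%) were far apart in every library. In CPM, miR-29a-3p stood at 1729, 1187, and 1478, miR-29c-5p at 295, 319, and 390, and miR-29c-3p at 47.1, 32.3, and 35.5. The 3p arms of miR-29a and miR-29c differ in 1 base, and how reads were divided between them was not tested. Their hairpins are shown with the arm that held most counts in capitals (RefSeq, GRCr8), although miR-29c stayed under 90% in control library 1 and so is one of the 42 pairs without a dominant arm.
Mir29a: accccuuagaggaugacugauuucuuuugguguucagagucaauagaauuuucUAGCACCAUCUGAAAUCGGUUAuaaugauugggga
Mir29c: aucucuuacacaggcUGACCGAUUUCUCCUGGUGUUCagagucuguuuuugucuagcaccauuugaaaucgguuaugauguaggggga

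Among the miR-30 members, which share the 5p seed GUAAACA, miR-30e stood apart. The 5p arm took 91.6% to 94.7% of miR-30a, 94.3% to 96.4% of miR-30b, 98.1% to 98.3% of miR-30c, and 99.8% ± 0.02 of miR-30d (SD, n = 3), but 67.3%, 58.1%, and 68.9% of miR-30e. The other member with this seed, miR-384, is described below with the pairs in which neither arm prevailed. In CPM, miR-30e-5p stood at 1331 ± 163 and miR-30e-3p at 720 ± 97.4 (SD, n = 3 each), so both arms of this hairpin were among the 65 most abundant names. Hairpins that lie side by side also differed. The 5p share was 78.5%, 82.5%, and 82.0% in miR-145 and 0.36% to 0.39% in its neighbour miR-143, and in the miR-106b-25 cluster it was 0.09% to 0.21% in miR-25 and 23.2% to 35.3% in miR-106b. In miR-93, of the same cluster, it was 98.1% to 100% by rat names but 17.0%, 16.7%, and 23.8% with the counts of hsa-miR-93-3p, a human name in the table, so the dominant arm of miR-93 turned on how its reads were named. In the epithelial miR-200 family, miR-200b and miR-200c had at most 0.49% on the 5p arm, whereas miR-200a had 28.3% ± 3.64 (SD, n = 3). Their relative miR-141, under the minimum of 50 counts, had 28.6%, 19.0%, and 23.1%.

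In 15 pairs neither arm reached 75% in any control library, and 9 of these stood at 100 CPM or more. The neuronal miRNA miR-132 had 52.2%, 46.4%, and 46.1% of its counts on the 5p arm, miR-369 had 42.6%, 41.7%, and 42.8%, and miR-434 had 60.3%, 57.3%, and 72.1%. The 3 values of miR-369 were nearly equal, whereas in miR-434 control library 3 stood above the others. Others in this group were miR-382, with 42.2%, 56.1%, and 52.3%, and miR-384, with 50.7%, 42.5%, and 49.9%, so that the higher arm of both depended on the library. The more abundant arm was the same in all 3 libraries in 87 pairs for 5p and 75 pairs for 3p, and it changed in 5, miR-132, miR-382, miR-384, miR-329, and miR-485. Over the 167 pairs, the 5p share differed between the highest and the lowest library by a median of 0.856 percentage points and at most by 20.8 points, in miR-380.

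**Figure D3:**
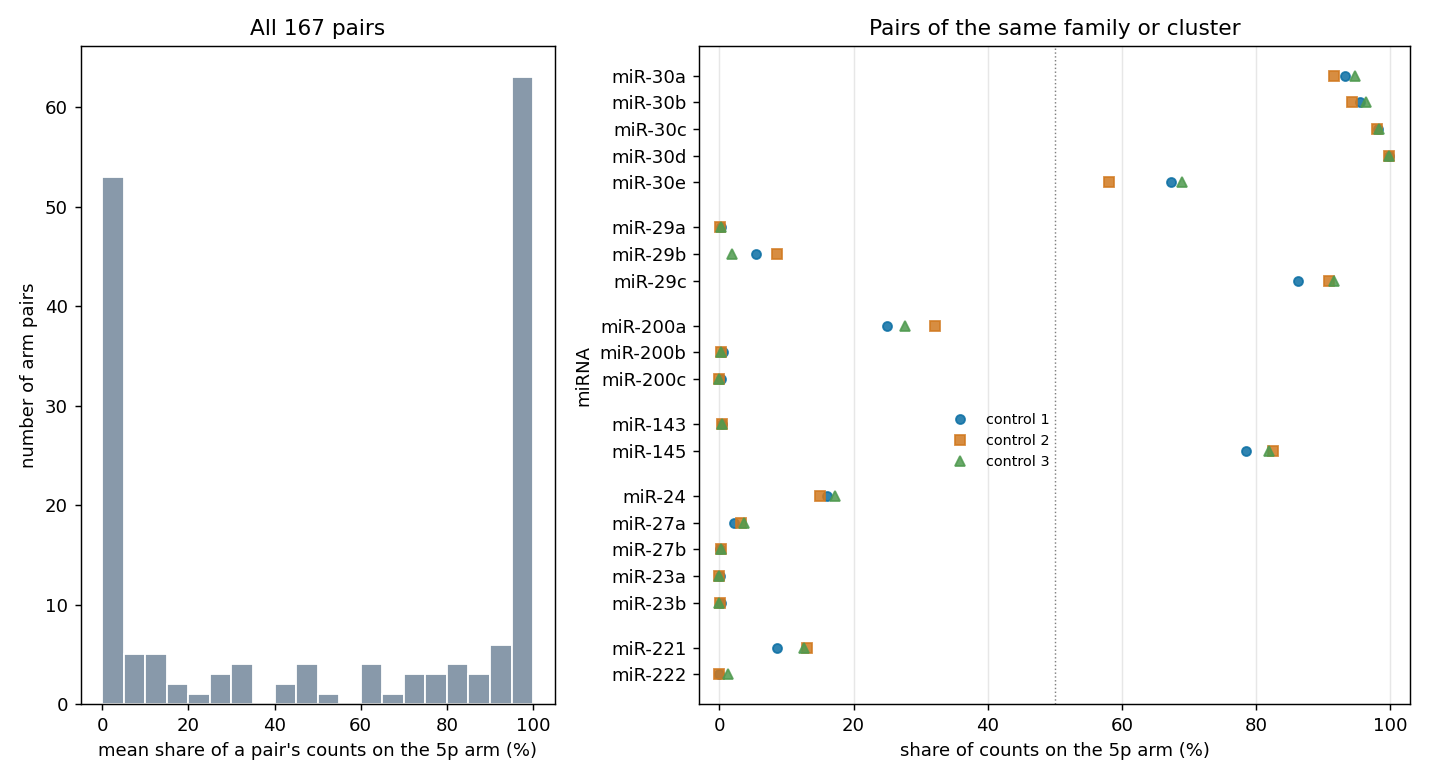
Number of arm pairs by mean share of counts on the 5p arm in percent (left, 167 pairs, bars 5 points wide) and the 5p share of each control library for pairs of the same family or cluster (right, points for libraries, dotted line at 50%). Most pairs lie at either end, and miR-29c, miR-30e, miR-145, and miR-200a lie apart from the other members drawn in their groups.

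The seed families gathered the counts further. The 10 largest seed families, with 28 names, took 77.9%, 78.7%, and 78.9% of the rat counts in control libraries 1 to 3. Of the names without a listed sequence, 9 were put in a family by name, miR-99a-5p and miR-30d-5p among them, and the others stood alone, so families are not counted here.

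Most of the large families rested on 1 member. The family with the seed CAGUGCA took 20.5% ± 1.81 (SD, n = 3), and miR-148a-3p made up 98.6% of it, beside miR-152-3p at 1840 ± 98.5 CPM and miR-148b-3p at 1106 ± 23.7 CPM (SD, n = 3 each). The family with the seed ACCCGUA took 16.1% ± 1.27 (SD, n = 3), with 95.5% of it on miR-99a-5p, beside miR-100-5p at 4854 ± 518 CPM and miR-99b-5p at 2432 ± 351 CPM (SD, n = 3 each). In the miR-26 family, miR-26a-5p exceeded miR-26b-5p by 11.4, 10.6, and 10.4 times in control libraries 1 to 3. The families of miR-182, miR-184, miR-96, miR-183, and miR-143 had a single counted name each. The seeds of miR-182 and miR-96 differ only in base 8, as the sequences above show.

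The let-7 family was the main exception, with its counts spread over several members. Its members are known to accumulate as cells differentiate. The 9 names with the seed GAGGUAG, those of let-7 and miR-98 on the 5p arm, together took 8.29%, 9.35%, and 7.85% of the rat counts. The member let-7i-5p held 29.6% of the family, let-7f-5p 28.4%, let-7g-5p 24.8%, and let-7c-5p 8.68%. Control library 3 was the lowest for 8 of the 9 names, beside 70 of all 160 names at 100 CPM or more, and the exception was let-7i-5p, with 23883, 24913, and 26640 CPM. The level of let-7a-5p was 4743, 5338, and 3432 CPM, and that of let-7f-5p was 23574, 28313, and 20553 CPM. Several members differ in few bases, and how reads were divided between them was not tested. The sequences of 5 of them (RefSeq, GRCr8) show this, with the seed in capitals.
let-7i-5p: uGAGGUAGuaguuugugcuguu
let-7f-5p: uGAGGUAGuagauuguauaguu
let-7g-5p: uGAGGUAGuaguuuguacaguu
let-7c-5p: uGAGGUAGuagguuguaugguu
let-7a-5p: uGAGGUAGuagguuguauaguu

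The miR-30 family was spread as well, over 6 names that took 2.82% ± 0.12 (SD, n = 3), 49.9% of it on miR-30d-5p, 22.2% on miR-30c-5p, and 18.8% on miR-30a-5p. In the pair of the eye miRNAs miR-204-5p and miR-211-5p, which differ in 1 base, the ratio was 3.07, 3.01, and 2.98. It moved little although miR-204-5p itself ran from 11966 to 15887 CPM. The muscle miRNAs miR-1b and miR-1-3p, which also differ in 1 base, had a ratio of 2.23, 2.24, and 2.35. How reads were divided between the names of these pairs was not tested. Among names at 1 CPM or more with a listed sequence, 59 of 393 had a partner within 2 base edits, and these names held 20.6% of the rat counts.

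**Figure D4:**
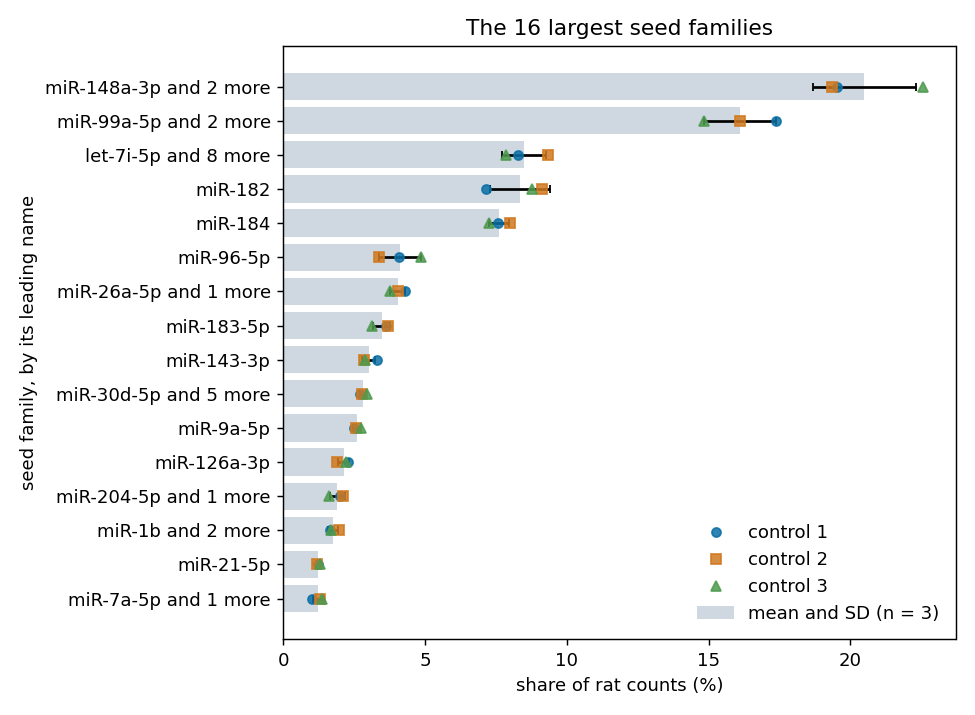
Share of rat counts in percent for the 16 largest seed families, named by their most abundant member, with bars for the mean and SD (n = 3) and a point for each control library. The first 2 families stand at 20.5% and 16.1%, and the let-7 family, miR-182, and miR-184 overlap or lie close to each other.

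Hairpins that lie together in the genome gave unequal levels. The sensory cluster, whose members act in photoreceptors and hair cells, summed to 14.8%, 16.2%, and 16.8% of the rat counts. Within it, miR-182 exceeded miR-96-5p by 1.75, 2.69, and 1.80 times and miR-183-5p by 1.98, 2.48, and 2.81 times. The order of miR-96-5p and miR-183-5p changed, with a ratio of 1.13, 0.922, and 1.56. In the smooth muscle cluster, miR-143-3p exceeded miR-145-5p by 49.1, 39.1, and 39.8 times, and miR-99a-5p exceeded let-7c-5p, which comes from the hairpin beside it and from another hairpin, by 22.2, 17.9, and 23.4 times. The more abundant arms of the growth-related miR-17-92 cluster were low, from miR-92a-3p, which also comes from a hairpin of another cluster, at 450 ± 47.0 CPM to miR-18a-5p at 1.86 ± 1.19 CPM (SD, n = 3 each), the latter near the 3-count floor. The miR-23/27/24 group comes from a cluster on chromosome 17 and another on chromosome 19. On chromosome 17, miR-27b-3p stood at 3504 ± 492 CPM (SD, n = 3) and miR-23b-3p at a mean of 696 CPM. On chromosome 19, miR-27a-3p stood at 1716 ± 375 CPM and miR-23a-3p at 518 ± 56.9 CPM (SD, n = 3 each). Both clusters hold a hairpin of miR-24-3p, which stood at 2256 ± 149 CPM (SD, n = 3). The neighbours miR-221-3p and miR-222-3p, which share a seed, lay closer, with a ratio of 1.83, 1.84, and 1.47. In the epithelial family, miR-200c-3p exceeded its neighbour miR-141-3p by 16.8, 29.4, and 18.8 times. Of 128 hairpins at 100 CPM or more, 62 lie inside a protein-coding gene, 33 inside a long noncoding RNA gene only, and 65 within 10000 bases of another hairpin on the same strand (RefSeq, GRCr8). The level of a hairpin was the sum of its mature names with a listed sequence, so miR-99a-5p is not in it, and 26 of the 128 hairpins carry the full level of a name that other hairpins share.

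Lists of miRNAs known from particular tissues were used to check the label. The lens and anterior eye list (miR-184, miR-204, and miR-211) had all 5 of its names counted in every library and took 9.58%, 10.1%, and 8.87% of the rat counts, so the markers of the labelled tissue were present, although these miRNAs are also known from other tissues of the eye. The sensory list, the same 3 miRNAs as the sensory cluster, was also complete. Markers of other tissues were counted beside them, and their part in the levels above was not tested. The vascular list took 5.69%, 4.87%, and 5.21%, with 6 of its 7 names in every library and miR-126b at 0 in all. The neural and retinal list took 3.68%, 3.65%, and 3.69%, with 9 of its 14 names in every library, and 26079 of its mean of 36729 CPM came from miR-9a-5p. Its member miR-124-3p, which marks neurons, stood at 3887, 2688, and 2733 CPM, highest in control library 1.

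The remaining lists were lower. The muscle list took 0.755% ± 0.06, the surface epithelium list 0.475% ± 0.06, the mesenchymal list 0.453% ± 0.04, and the epithelial list 0.243% ± 0.004 (SD, n = 3 each). In the muscle list, miR-1-3p stood at 5070 ± 534 CPM, miR-206-3p at 973 ± 122 CPM, and miR-133a-3p at 682 ± 34.6 CPM (SD, n = 3 each), and miR-1b, which was not on the list, stood at 11494 ± 1085 CPM (SD, n = 3), above the 7550 CPM of the whole list. In the mesenchymal list, miR-199a-3p stood at 4007 ± 383 CPM and miR-214-3p at 63.8 ± 6.20 CPM (SD, n = 3 each). In the surface epithelium list, miR-203a-3p of the epidermis stood at 3511 ± 499 CPM and miR-205 of stratified epithelium at 1232 ± 110 CPM (SD, n = 3 each). In the epithelial list, miR-200b-3p stood at 1502 ± 45.2 CPM (SD, n = 3). The leukocyte list took 0.165% ± 0.008 (SD, n = 3), and its member miR-223-3p of myeloid cells stood at 13.8, 18.8, and 8.31 CPM, while miR-146a-5p stood at 841, 896, and 848 CPM. The visceral list took 0.106% ± 0.005, the red cell list 0.0255% ± 0.003, and the glial list 0.00681% ± 0.0008 (SD, n = 3 each). The red cell miRNAs miR-451-5p and miR-486 stood at 120 ± 17.2 and 128 ± 18.3 CPM (SD, n = 3 each), and miR-144-3p was at or under the floor in every library. In the visceral list, miR-192-5p stood at 668 ± 44.9 CPM and miR-375-3p, of pancreatic islets, at 238 ± 38.2 CPM (SD, n = 3 each). The liver miRNA miR-122-5p had 45, 9, and 8 counts.

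**Figure D5:**
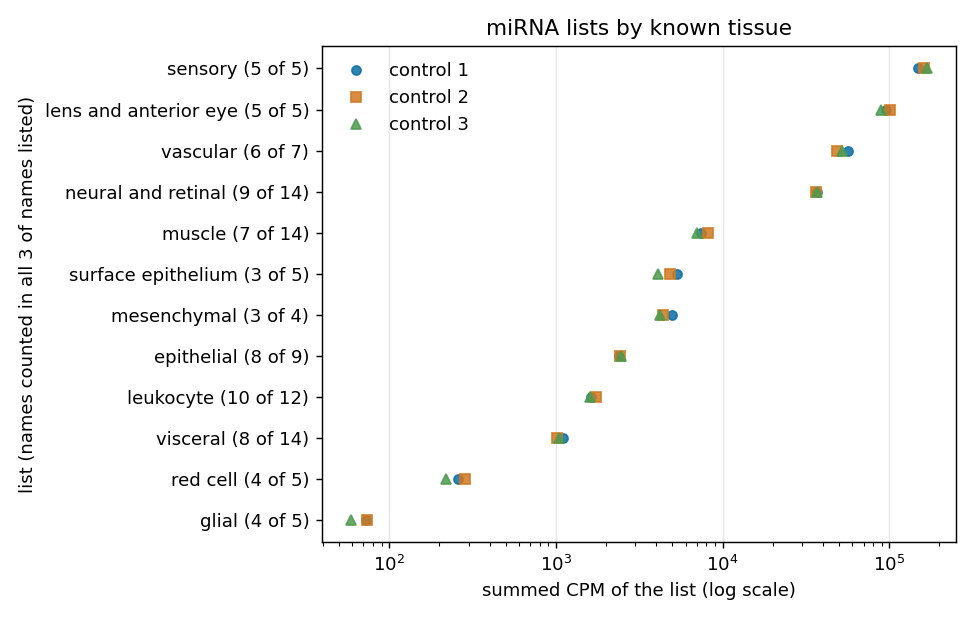
Summed CPM of rat counts (log scale) for 12 lists of tissue-marker miRNAs, with a point for each control library and, in brackets, the names counted in all 3 libraries of those listed. The sensory and the lens and anterior eye lists are the highest, and the glial list, at 58.7 to 73.3 CPM, is the lowest.

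Abundant names with a listed sequence also shared features. Of the 404 such names counted in all 3 libraries, 40.3% began with U. Over all 686 rat names with a listed sequence, those beginning with U held 92.3%, 92.9%, and 93.4% of the counts. Names with a listed sequence held 80.8%, 82.1%, and 83.2% of all rat counts. The second most abundant name, miR-99a-5p, at 15.4%, was outside them, so these shares do not describe the whole profile. Its family member miR-100-5p begins with A. In the pairs dominated by the 5p arm with both sequences listed, the dominant arm began with U in 36 of 53 and the minor arm in 10 of 53. In those dominated by the 3p arm, the dominant arm began with U in 21 of 39 and the minor arm in 5 of 39. The mean GC content was 43.1% ± 0.04 (SD, n = 3) weighted by counts and 47.6% over names. Of the counts on names with a listed sequence, names of 22 bases held 46.9% ± 2.90 (SD, n = 3). Names of 21 bases held 29.7% ± 1.77 (SD, n = 3), and miR-148a-3p, of 21 bases, was most of the latter.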

How the data were processed

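Small RNA libraries were made from TRIzol total RNA of the capsular membrane of 1 lens per rat. The authors used Cutadapt and Fqtrim for trimming, FastQC for quality, and miRDeep and HISAT2 for comparison with an Ensembl genome. Which of these tools was used on the small RNA reads, or named the miRNAs, is not stated. The genome build and the tool versions are not given in the sources used here. The deposited table holds raw counts per miRNA name, not normalized. Of its 910 names, the 147 without the rat prefix, 11 of them predicted miRNAs tied to no species and the others with prefixes of other species, were left out. The 3 control columns were scaled to CPM of their rat counts, and the selenite columns were not used. Means and SD are over 3 libraries (Python 3.11.15, pandas 2.3.3).

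Arms were paired by name, locus-numbered arms were summed, and pairs with under 50 counts in any library were left out. Families were formed by bases 2 to 8 of the RefSeq (GRCr8) mature sequence, which matched 686 of 763 names, or for 9 names by name, and other names without a sequence stood alone. Named miRNAs were the 20 most abundant, the 10 with the largest ratio of highest to lowest library at 100 CPM or more, members of the 10 largest families, of 9 known clusters, and of the lists, the 20 most abundant arm pairs, and the pairs at 100 CPM or more with neither arm at 75%. The miR-29 family, miR-378a-3p, miR-380, and miR-485 were added after their values were seen. Spread was also estimated with edgeR 4.0.16, and DESeq2 1.42.0 size factors were an alternative scaling. No test between groups was run. The members and lists were chosen with earlier results of these data known. The scripts were tested on simulated data. Library depth was 1804803 to 2826525 rat counts.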

Additional observations from a re-analysis of the deposited data

Results flagged for a closer look

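Names that do not carry the rat prefix, left out of the profile, were counted in the control libraries. Their share of all counts was 0.119%, 0.101%, and 0.0992%. The mean was 0.107% ± 0.01 (SD, n = 3). Of these counts, 67.4%, 64.8%, and 67.2% were on hsa-miR-93-3p, with 1282, 781, and 672 counts, and mmu-miR-744-5p, with 996, 581, and 533 counts. The counts of hsa-miR-93-3p exceeded those of the rat name miR-93-5p, with 264, 157, and 210, and the 5p share of miR-93 by rat names depends on leaving them out. How reads came to these names was not tested.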

How the results depend on the processing

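Of 61 alternative values of the main results, 55 stayed within the limits set for a change. So did 48 alternative list shares and 100 alternative levels of the 20 most abundant names. The limit was 1.5-fold for counts of names or pairs and otherwise the SD between libraries. For the median coefficient of variation it was the SD across names, 9.06 points, so 17.3% with at least 1 count passed. For list shares and levels, leaving out 1 of 3 libraries cannot move the mean by the SD between libraries. Those alternatives could not fail, and the other list alternative changed only the denominator. With dominance set at 99%, 36 pairs were dominated by the 5p arm and 33 by the 3p arm, in place of 69 and 56. With at least 200 counts required, 59 pairs were dominated by the 5p arm and 35 by the 3p arm, and with at least 1 count 82 and 82, so the excess of 5p pairs depends on the minimum count. The 5p share, 61.4% over all counts of the pairs, was 68.6% as the median over pairs and 81.3% without miR-148a, since that 1 abundant pair lies on the 3p arm. With families formed on bases 2 to 7, miR-182 and miR-96 fell into 1 family and the 10 largest took 81.1%. Leaving out each library in turn gave 70 pairs for the 5p arm and 57 to 59 for the 3p arm. Counting names with identical counts once, chosen after seeing the data, gave 70 and 56 pairs, and adding human and mouse names of the same arm, also chosen then, gave 68 and 56. Names counted in all 3 libraries fell from 442 to 386 with at least 3 counts and to 320 with at least 10, and were 434 on average with the libraries thinned to the shallowest. No paired analysis was possible because no result comes from a test.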

Other observations

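Among names with at least 30 counts over the 3 libraries, 2 pairs of names had identical counts in every library, found after the values were seen. Whether the same reads were entered under both names was not tested. The names let-7a-1-3p and let-7c-2-3p, which share a sequence, both had 432, 285, and 260 counts, and miR-129-1-3p and miR-129-2-3p, of which one sequence is the start of the other, both had 735, 701, and 522 counts. With the latter counted once, the 5p share of miR-129 was 95.2%, 93.8%, and 93.3%, which places it among the pairs dominated by the 5p arm, in place of 90.8%, 88.3%, and 87.5%.

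The imprinted Dlk1-Dio3 region, a large miRNA cluster active in embryo, brain, and muscle, gave 91 names that took 1.02%, 0.810%, and 0.863% of the rat counts. Among arm pairs with a hairpin in the RefSeq table, 21 (14.5%) came from this region. Of the 15 pairs in which neither arm reached 75%, 14 have a hairpin there, and 6 of these 14 came from the region (42.9%). Pairs without such a hairpin could not be placed. This was seen after the values were known and is given as a description.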
